A study of Mus with 4 samples.

Results

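The mitochondrial genome of the mouse encodes 13 proteins, 2 ribosomal RNAs and 22 transfer RNAs. All 13 proteins are subunits of the complexes of oxidative phosphorylation (OXPHOS), the machinery whose proton gradient is dissipated by UCP1 to make heat in brown adipose tissue (BAT). The peaks described here are those that the deposited m6A lists place on chromosome MT. There were 20 of them, 8 among the 18400 peaks of *Wtap* flox/flox mice and 12 among the 18693 peaks of *Wtap*-BKO mice. They lay on 7 of the 11431 genes that had a peak in either list. These were *mt-Nd1*, *mt-Nd2*, *mt-Nd4*, *mt-Nd5*, *mt-Nd6*, *mt-Cytb* and *mt-Co1*.

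The mice were C57BL/6, 8 weeks old and on normal chow, and interscapular BAT (iBAT) was taken. Both groups carried the floxed *Wtap* alleles. *Wtap*-BKO mice carried in addition *Ucp1*-iCre, so the deletion was driven in cells that express *Ucp1* and not in the other cells of the tissue. In each genotype 1 immunoprecipitated (IP) sample and 1 input sample were sequenced, each pooled from 8 mice. There are thus no replicates, no difference between the genotypes could be tested, and every value below describes the pooled samples.

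In MeRIP-seq, poly(A)+ RNA is broken into fragments and precipitated with an antibody against m6A, and peaks are the stretches where reads of the precipitated RNA are enriched over those of the input. WTAP is the subunit that holds the METTL3 methyltransferase complex at its sites in the nucleus. Mitochondrial RNA, in contrast, is made inside the mitochondrion as long transcripts from both strands, which are cut apart at the transfer RNAs. The genes have no introns and almost no untranslated sequence, so a peak on such a gene lies for the most part in coding sequence. In a whole tissue, fewer brown adipocytes and less mitochondrial RNA per cell cannot be told apart.

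A peak of one list was counted as found in the other when they shared at least 1 base on the same strand. All 8 *Wtap* flox/flox peaks were found in the *Wtap*-BKO list (100%, exact 95% interval 63.1% to 100%). Over the whole *Wtap* flox/flox list this share was 67.8%. All 8 had a false discovery rate given as 0, and of 139 such peaks on other chromosomes 130 were found (93.5%). In the other direction 7 of 12 *Wtap*-BKO peaks were found (58.3%, interval 27.7% to 84.8%), beside 68% of the whole list. The false discovery rate was 0 for 9 of the 12, and all 7 that were found were among these 9. Of 74 peaks on other chromosomes with a false discovery rate of 0, 72 were found (97.3%). The intervals reflect the small number of peaks and no biological spread. Of the 7 genes, 5 had peaks in both lists (*mt-Nd2*, *mt-Nd4*, *mt-Nd5*, *mt-Nd6* and *mt-Cytb*), beside 70.1% of all genes with a peak. The other 2, *mt-Nd1* and *mt-Co1*, had peaks in the *Wtap*-BKO list alone, as did 14.9% of all genes with a peak.

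**Figure D1:**
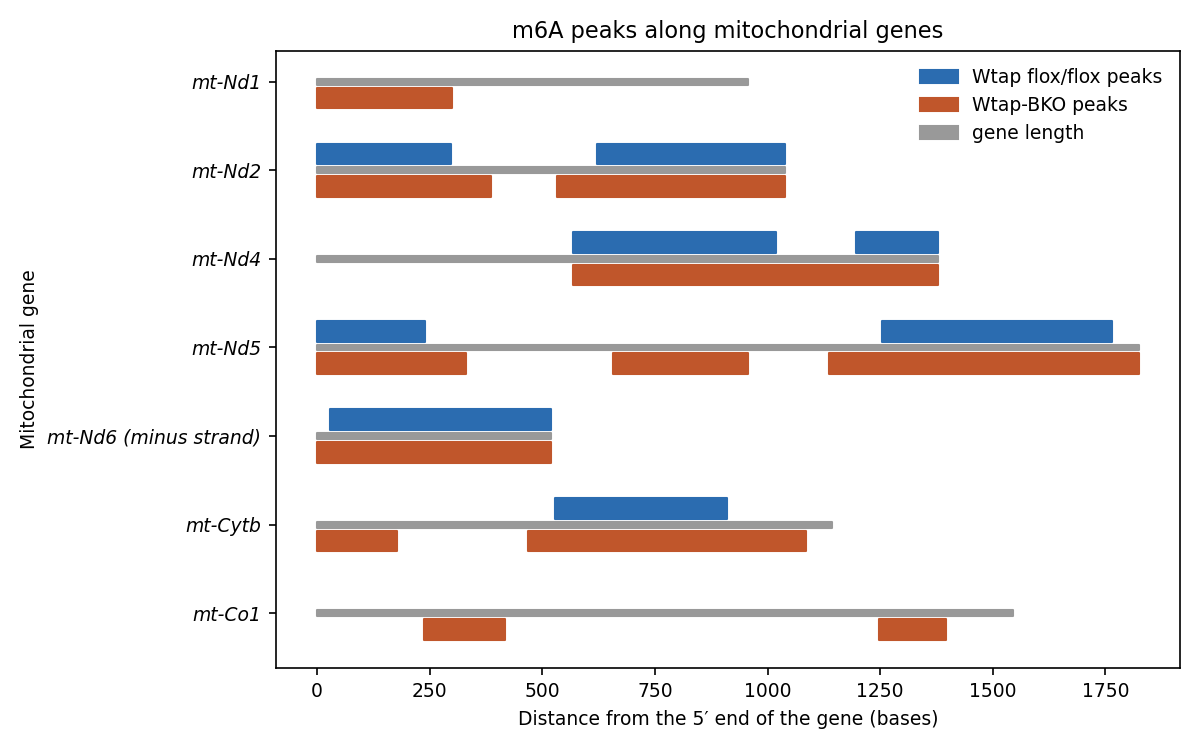
Peaks of both lists along the 7 mitochondrial genes that had any, drawn to scale as the distance in bases from the 5′ end of each gene, with the gene in grey, the *Wtap* flox/flox peaks above it and the *Wtap*-BKO peaks below. Each of the 8 *Wtap* flox/flox peaks lies within the bounds of a *Wtap*-BKO peak, and 5 *Wtap*-BKO peaks have no counterpart.

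Complex I, the NADH dehydrogenase that feeds electrons into the chain, has 7 of the 13 mitochondrial protein genes, and most of the peaks lay on these. Of its 7 genes 5 had a peak, beside 7 of all 13. The complex I genes held 7 of the 8 *Wtap* flox/flox peaks and 8 of the 12 *Wtap*-BKO peaks. Positions are given on GRCm38, the build named in the submitters' processing notes, and gene bounds come from a RefSeq table of GRCm38.p6.

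*mt-Nd2* (ENSMUSG00000064345, plus strand, MT:3914-4951, 1038 bases) encodes a proton-pumping membrane subunit and had the smallest p-values in both lists. Its first peak began at the first base of the gene in both lists and ran to 4210 in *Wtap* flox/flox mice (297 bases) and to 4299 in *Wtap*-BKO mice (386 bases). Its fold enrichment (IP over input) was 6.42 in the *Wtap* flox/flox list and 8.27 in the *Wtap*-BKO list, and the log10 of the p-value was −15600 and −26800, rank 1 in each list. The second peak ended at the last base of the gene in both lists. It began at 4536 in *Wtap* flox/flox mice and at 4447 in *Wtap*-BKO mice, with 2.75-fold and 4.21-fold enrichment and log10 p-values of −10100 and −21600, rank 2 in each. The gap without a peak in the middle of the gene was therefore 325 bases long in *Wtap* flox/flox mice, against 147 in *Wtap*-BKO mice.

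*mt-Nd4* (ENSMUSG00000064363, plus strand, MT:10167-11544, 1378 bases) encodes another membrane subunit of complex I. *Wtap* flox/flox mice had 2 peaks on it, from 10736 to 11185 and from 11364 to 11544, separated by 178 bases. *Wtap*-BKO mice had 1 peak from 10736 to 11544 that spanned both and the gap between them. The outer bounds were thus identical in the lists, and 569 bases at the 5′ end of the gene had no peak in either. The fold enrichment of the first *Wtap* flox/flox peak was 17.2, with a log10 p-value of −1180, whereas the second had a lower fold, 1.86, with a smaller p-value, −2650 on the log10 scale. In the *Wtap*-BKO peak of 809 bases the fold enrichment was 25.0 and exceeded 97.2% of its list, and the log10 p-value was −9410.

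*mt-Nd5* (ENSMUSG00000064367, plus strand, MT:11742-13565, 1824 bases) encodes the largest mitochondrial subunit of complex I and had 2 peaks in *Wtap* flox/flox mice and 3 in *Wtap*-BKO mice. The first began at the first base of the gene in both lists. It ended at 11981 in *Wtap* flox/flox mice (fold enrichment 7.93, log10 p-value −5360) and at 12071 in *Wtap*-BKO mice (fold enrichment 11.3, log10 p-value −5920). The last *Wtap* flox/flox peak ran from 12997 to 13505, and its fold enrichment was 1.51 at a log10 p-value of −542. Its *Wtap*-BKO counterpart was longer at both ends, from 12878 to 13565, the last base of the gene, and its fold enrichment was 2.45 at a log10 p-value of −2820. A further *Wtap*-BKO peak, from 12399 to 12698, lay within the stretch of 1015 bases that had no *Wtap* flox/flox peak. It was the weakest of the mitochondrial peaks by p-value and by fold, with a log10 p-value of −111 and a fold enrichment of 1.24, above 0.123% of its list.

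*mt-Nd6* (ENSMUSG00000064368, MT:13552-14070, 519 bases) is the only protein gene read from the other strand of the mitochondrial genome, and its peaks were the only ones on the minus strand. The *Wtap*-BKO peak covered the whole gene. The *Wtap* flox/flox peak, from 13552 to 14041, covered 490 bases and left out the first 29 at the 5′ end. The fold enrichment was 2.13 in *Wtap* flox/flox mice and 3.15 in *Wtap*-BKO mice, with log10 p-values of −2200 and −5580. The genes *mt-Nd5* and *mt-Nd6* overlap by 14 bases on opposite strands, and so did their *Wtap*-BKO peaks, whereas 46 bases separated the *Wtap* flox/flox peaks. The labels describe no strand-specific step in the library preparation, and the strand of a listed peak is that of its gene. Reads of *mt-Nd6* and of RNA from the opposite strand therefore cannot be told apart here.

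*mt-Nd1* (ENSMUSG00000064341, plus strand, MT:2751-3707, 957 bases), which encodes a core membrane subunit of complex I, had a peak in *Wtap*-BKO mice alone. It covered the first 300 bases of the gene, to position 3050, and was enriched 3.05-fold at a log10 p-value of −934, rank 24 of its list. The remaining complex I genes, *mt-Nd3* (348 bases) and *mt-Nd4l* (297 bases), had no peak in either list.

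Outside complex I, peaks were found on 1 gene each of complexes III and IV. *mt-Cytb* (ENSMUSG00000064370, plus strand, MT:14145-15288, 1144 bases) encodes cytochrome b, the mitochondrial subunit of complex III. Its peak ran from 14673 to 15054 in *Wtap* flox/flox mice and from 14614 to 15229 in *Wtap*-BKO mice, 59 bases further at the 5′ side and 175 at the 3′ side. The fold enrichment was 1.37, above 0.261% of the *Wtap* flox/flox list, and 2.02, above 9.25% of the *Wtap*-BKO list. The log10 p-values were −1800 and −7860, ranks 14 and 4. *Wtap*-BKO mice had a second *mt-Cytb* peak on the first 177 bases of the gene, which ended at 14321. It was enriched 2.01-fold, and its log10 p-value was −310.

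*mt-Co1* (ENSMUSG00000064351, plus strand, MT:5328-6872, 1545 bases) encodes the catalytic subunit of cytochrome c oxidase, complex IV, and had 2 peaks in *Wtap*-BKO mice but none in *Wtap* flox/flox mice. The upstream peak (5566 to 5744) combined a low fold enrichment of 1.30 with a log10 p-value of −1590. The downstream peak (6575 to 6724) showed the opposite combination. Its fold enrichment of 86.5 was rank 14 of 18693 in the *Wtap*-BKO list, and its log10 p-value of −212 was rank 148.

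The other genes of complexes IV and V (*mt-Co2*, *mt-Co3*, *mt-Atp6* and *mt-Atp8*) had no peak, and neither had the ribosomal and transfer RNA genes. The 6 protein genes without a peak were 204 to 784 bases long, against 519 to 1824 bases for the 7 with one, and all 6 lie next to each other. They fall in the longest stretch between mitochondrial peaks, 4011 bases in *Wtap*-BKO mice (6725 to 10735) and 5784 in *Wtap* flox/flox mice (4952 to 10735). The 2 *Wtap*-BKO peaks that border this stretch had the highest fold enrichments of the 12, 86.5 on *mt-Co1* and 25.0 on *mt-Nd4*. At least part of this stretch is known to have a copy in the nuclear genome of the mouse, whose bounds were not traced here. The gene table lists 2 pseudogenes on chromosome 1, *Gm10925* (1:24613971-24614651) and *Gm10222* (1:24612404-24612700), with the same lengths as *mt-Atp6* (681 bases) and *mt-Nd4l* (297 bases). They lie 1270 bases apart, against 1269 for the mitochondrial genes. No peak of either list (0 and 0) lay on them or within 2000 bases. How reads that fit both places were handled is not given in the sources used here. Their part in the missing peaks and in the fold enrichments of the bordering peaks was not tested.

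**Figure D2:**
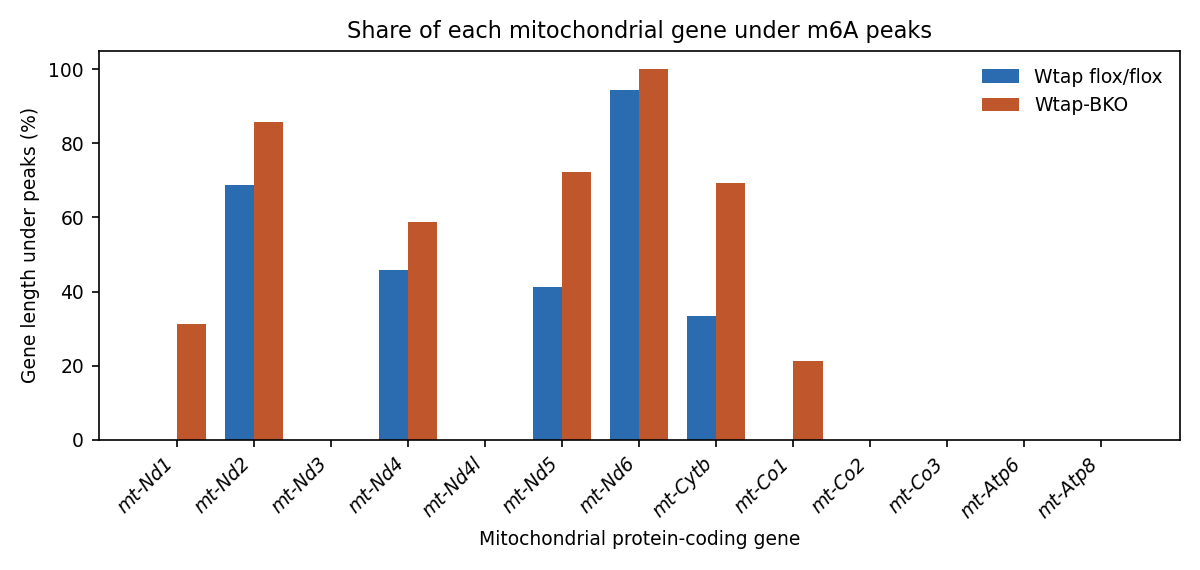
Percent of the length of each of the 13 mitochondrial protein-coding genes that lies under peaks, in *Wtap* flox/flox (blue) and *Wtap*-BKO (orange) mice, with 1 pooled list per genotype and hence no error bars. The bar is higher in *Wtap*-BKO mice for all 7 genes with a peak, and the remaining 6 are at 0.

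By length, peaks covered 2965 of the 11403 bases summed over the 13 protein genes in *Wtap* flox/flox mice (26.0%) and 4959 in *Wtap*-BKO mice (43.5%), which is 1.67 times as many. No base (0) was covered in *Wtap* flox/flox mice alone, and 1994 were covered in *Wtap*-BKO mice alone. The bases covered in *Wtap*-BKO mice alone were most numerous on *mt-Nd5*, with 569 (from 41.1% to 72.3% of the gene), and then on *mt-Cytb*, with 411 (from 33.4% to 69.3%). The covered share went from 68.7% to 85.8% for *mt-Nd2*, from 45.8% to 58.7% for *mt-Nd4* and from 94.4% to 100% for *mt-Nd6*. For *mt-Nd1* and *mt-Co1* it was 31.3% and 21.3% in *Wtap*-BKO mice.

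All 8 *Wtap* flox/flox peaks lay wholly inside a *Wtap*-BKO peak (exact 95% interval 63.1% to 100%), beside 25.9% over the whole *Wtap* flox/flox list. No *Wtap*-BKO peak lay wholly inside a *Wtap* flox/flox peak (0 of 12, interval 0% to 26.5%), beside 32.5% over the whole *Wtap*-BKO list. Comparing the start and the end of the 8 *Wtap* flox/flox peaks with those of the *Wtap*-BKO peak on them, 6 of 16 bounds were identical. In the other 10 the *Wtap*-BKO bound lay further out, by 29 to 628 bases, and in 0 it lay further in. Apart from the start at 10736 on *mt-Nd4*, the identical bounds lay at a gene end, past which no mitochondrial peak ran. The shifts of 359 and 628 bases came from *mt-Nd4*, where 1 *Wtap*-BKO peak spanned 2 *Wtap* flox/flox peaks and shared their outer bounds. All other shifts were at most 175 bases. Of these 10 shifts, 9 were within 3 bases of a multiple of 30, and the smallest was 29 bases, at *mt-Nd6*.

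Of the *Wtap* flox/flox peaks, 6 were matched to a single *Wtap*-BKO peak that had no other partner. The *Wtap*-BKO peak was the longer in 6 of 6, by a median of 89.5 bases, while it was longer in 39.5% of the 10564 such pairs over all genes. It also had the smaller p-value in 6 of 6, beside 45.7% over all genes, and the higher fold enrichment in 6 of 6, beside 35.2%. A fold enrichment is a ratio within 1 genotype and the lists share no scale, so each was also set against its own list. The share of the list with a lower fold went from 49.1% to 71.1% and from 13.7% to 45.3% for the *mt-Nd2* peaks, from 58.2% to 80.5% and from 0.837% to 17.6% for the *mt-Nd5* peaks, from 6.14% to 30.5% for *mt-Nd6* and from 0.261% to 9.25% for *mt-Cytb*. In each of these pairs the *Wtap*-BKO peak thus stood higher in its own list. The median fold of the whole list was lower in *Wtap*-BKO mice, 4.65 against 6.58, so a given fold can stand higher there. A fold of 2.45 stood above 17.6% of the *Wtap*-BKO list, whereas one of 2.75 stood above 13.7% of the *Wtap* flox/flox list. The read depth of the libraries is unknown, and its part in these differences was not tested.

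**Figure D3:**
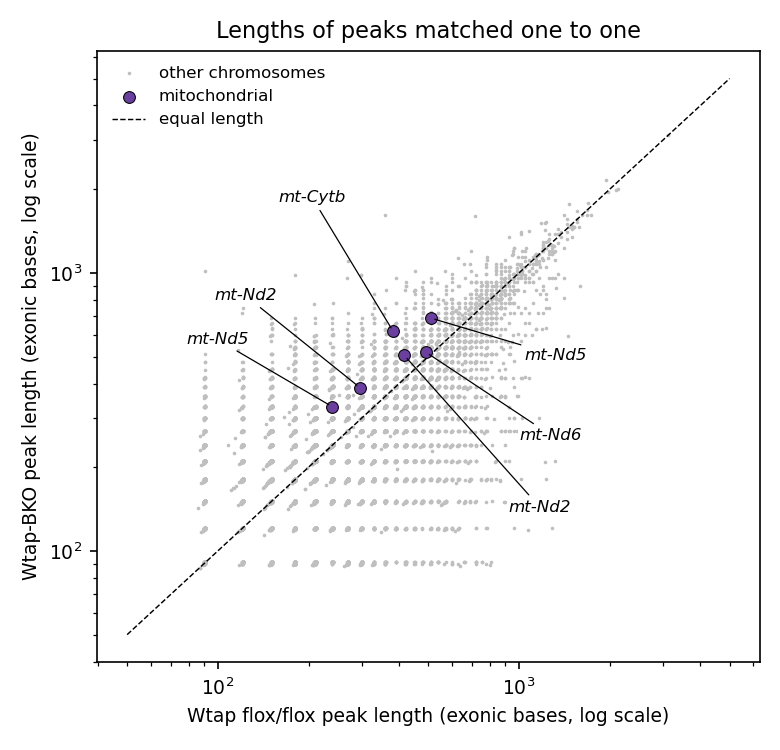
Length in exonic bases of peaks matched 1 to 1 between the lists, *Wtap* flox/flox on the horizontal and *Wtap*-BKO on the vertical log axis, with mitochondrial pairs in purple, other chromosomes in grey and equal length as a dashed line. All 6 mitochondrial pairs lie above the line, by 29 to 234 bases.

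The mitochondrial peaks were among the most extreme of their lists in p-value. A false discovery rate of 0 is given for 147 peaks in *Wtap* flox/flox mice (0.799%) and for 83 in *Wtap*-BKO mice (0.444%), and 8 of the 8 and 9 of the 12 mitochondrial peaks were among them. Ranked by p-value, 4 of the 8 and 7 of the 12 were in the first 10 of their list. The lowest rank was 70 in *Wtap* flox/flox mice, for the last *mt-Nd5* peak, and 400 in *Wtap*-BKO mice, for the middle *mt-Nd5* peak. Ranked by fold enrichment they stood much lower. The fold was below the median of the list for 6 of the 8 *Wtap* flox/flox peaks (median 2.44, against 6.58 for the list) and for 8 of the 12 *Wtap*-BKO peaks (median 3.10, against 4.65). A p-value depends on the number of reads as well as on the enrichment, and the read numbers are not in the lists.

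**Figure D4:**
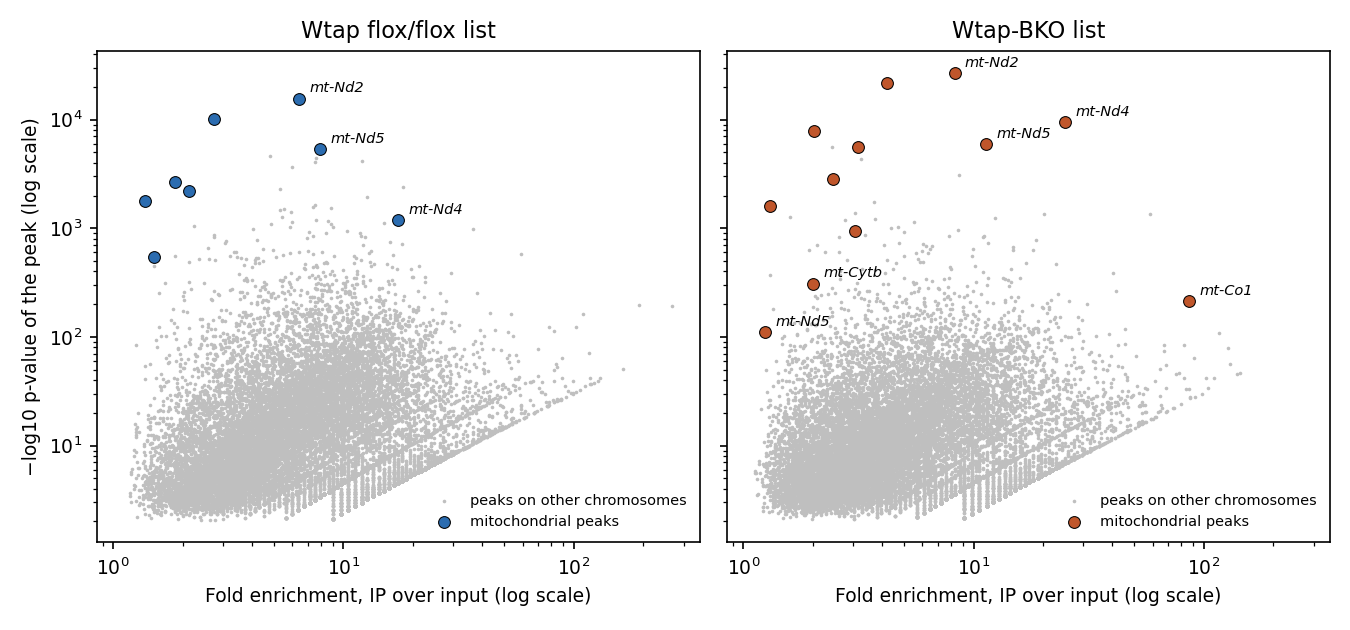
Minus log10 p-value against fold enrichment of IP over input for every peak of the *Wtap* flox/flox list (left) and the *Wtap*-BKO list (right), both on log axes, with the mitochondrial peaks as large points and some of them named. Most of the mitochondrial peaks lie above the cloud of other peaks in p-value but at its left in fold, with a fold from 1.37 to 17.2 on the left and from 1.24 to 86.5 on the right.

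The 6 mitochondrial pairs had a false discovery rate of 0 in both lists. On other chromosomes 42 pairs matched 1 to 1 did so too. The *Wtap*-BKO peak was longer in 15 of them (35.7%) and shorter in 15, had the smaller p-value in 20 (47.6%) and the higher fold enrichment in 13 (31.0%). For the mitochondrial pairs these counts were 6 of 6 longer, 6 of 6 with the smaller p-value and 6 of 6 with the higher fold enrichment, and the difference was not tested. The shares elsewhere moved with the list by which peaks were chosen, since choosing on the p-value of a list favours that list. Among 106 pairs with a false discovery rate of 0 in *Wtap* flox/flox mice, the *Wtap*-BKO peak was longer in 17.0% and had the smaller p-value in 18.9%. Among 63 pairs chosen in the *Wtap*-BKO list, the shares were 49.2% and 65.1%. Containment was also counted for peaks elsewhere with a false discovery rate of 0. Of 139 such *Wtap* flox/flox peaks, 36 lay wholly inside a *Wtap*-BKO peak (25.9%), beside 25.9% of all *Wtap* flox/flox peaks of other chromosomes. Of 74 such *Wtap*-BKO peaks, 32 lay wholly inside a *Wtap* flox/flox peak (43.2%), beside 32.5% of all *Wtap*-BKO peaks of other chromosomes.

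Along the genes, the peak centres were spread over the whole length. Measured from the 5′ end in percent of gene length, they ranged from 6.58% (the first *mt-Nd5* peak) to 93.4% (the second *mt-Nd4* peak) in *Wtap* flox/flox mice, with a median of 60.2%. In *Wtap*-BKO mice they ranged from 7.74% to 85.6% with a median of 47.1%. With each gene cut into 5′, middle and 3′ parts of equal length, 2 *Wtap* flox/flox centres lay in the 5′ part, 3 in the middle and 3 in the 3′ part, and for *Wtap*-BKO mice the numbers were 5, 2 and 5. The first base of the gene was reached by 2 *Wtap* flox/flox peaks (*mt-Nd2* and *mt-Nd5*) and by 5 *Wtap*-BKO peaks, with *mt-Nd1*, *mt-Nd6* and *mt-Cytb* added. The last base was reached by 3 *Wtap* flox/flox peaks (*mt-Nd2*, *mt-Nd4* and *mt-Nd6*) and by 4 *Wtap*-BKO peaks, with *mt-Nd5* added. Each listed peak belongs to 1 gene, and no mitochondrial peak ran past the end of its gene. All 20 peaks were single blocks. Their length was 181 to 509 bases (median 399) in *Wtap* flox/flox mice, where the median of the list was 240, and 150 to 809 (median 358) in *Wtap*-BKO mice, where it was 210.

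The nuclear genome encodes the other subunits of the same complexes, which are imported into the mitochondrion after translation in the cytosol. Of 74 such genes of complexes I, III, IV and V, 56 had a peak in either list, 35 in both, 10 in *Wtap* flox/flox mice alone and 11 in *Wtap*-BKO mice alone. Of the 56, the share in both lists was 62.5%, beside 70.1% of all genes with a peak. Of all genes with a peak, 15% had peaks in *Wtap* flox/flox mice alone and 14.9% in *Wtap*-BKO mice alone. The peaks of the nuclear subunit genes numbered 49 in *Wtap* flox/flox mice and 60 in *Wtap*-BKO mice. Of the 49, 36 were found in *Wtap*-BKO mice (73.5%, beside 67.8% of the list) and 31 lay wholly inside a *Wtap*-BKO peak (63.3%, beside 25.9% of the list). In 34 pairs matched 1 to 1 the *Wtap*-BKO peak was longer in 22 (64.7%, beside 39.5% of all pairs) and had the smaller p-value in 28 (82.4%, beside 45.7%). By complex it was longer in 14 of 19 pairs (I), 1 of 2 (III), 5 of 7 (IV) and 2 of 6 (V).

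For each complex the nuclear gene with the smallest false discovery rate in *Wtap* flox/flox mice is given as an example. *Cox8b*, a complex IV subunit abundant in brown fat, was the only nuclear subunit gene with a false discovery rate given as 0. Its peak had a fold enrichment of 4.23 in *Wtap* flox/flox mice and 4.39 in *Wtap*-BKO mice, with log10 p-values of −781 and −1000. *Atp5j2*, of the ATP synthase (complex V), had identical bounds in both lists, a fold enrichment of 5.96 and 6.32 and log10 p-values of −165 and −281. *Ndufv3*, of complex I, went the other way in p-value and fold, with 4.84 and −235 in *Wtap* flox/flox mice and 2.80 and −89.1 for the *Wtap*-BKO peak that shared most bases with it. *Uqcrfs1*, the iron-sulfur protein of complex III, had a *Wtap* flox/flox peak (fold enrichment 1.70, log10 p-value −101) with no *Wtap*-BKO peak on it.

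Of 20 nuclear genes for transcription and processing of mitochondrial RNA, 19 had a peak. Of these 19, 17 had peaks in both lists, beside 70.1% of all genes with a peak. Their peaks numbered 38 in *Wtap* flox/flox mice and 29 in *Wtap*-BKO mice, and 4 of the 38 lay wholly inside a *Wtap*-BKO peak, beside 25.9% of the list. In 18 pairs matched 1 to 1 the *Wtap*-BKO peak was longer in 3 and had the smaller p-value in 4, beside 39.5% and 45.7% of all pairs. *Supv3l1*, the helicase of the mitochondrial RNA degradosome, was enriched 16.6-fold at a log10 p-value of −175 in *Wtap* flox/flox mice, against 4.75 and −59.4 in *Wtap*-BKO mice.

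The lists also differed in the peaks of cell type markers. Among 14 brown adipocyte markers, 13 had peaks in both lists, beside 70.1% of all genes with a peak. *Ucp1* and *Cidea* were among the 13, and *Elovl3* had peaks in *Wtap* flox/flox mice alone. The number of peaks on these markers was 36 in *Wtap* flox/flox mice and 33 in *Wtap*-BKO mice, where the whole lists held 18400 and 18693. The lower total in *Wtap*-BKO mice rested on *Prdm16*, with 8 and 1 peaks, whereas *Pparg* had 1 and 4. In their 22 pairs matched 1 to 1 the *Wtap*-BKO peak was longer in 10 and had the smaller p-value in 13, beside 39.5% and 45.7% over all pairs. For the markers of each other cell type given below, the total was higher in *Wtap*-BKO mice.

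For 12 macrophage markers the number of peaks was 16 and 26, with no peak (0) on *Adgre1* in either list. In 14 macrophage pairs the *Wtap*-BKO peak was longer in 10 and had the smaller p-value in 12. Over all pairs these shares were 39.5% and 45.7%, which also stand beside the pair counts that follow. For 13 skeletal muscle markers the number of peaks was 5 and 18, with no peak (0) on *Ckm*. Of the 12 muscle genes with a peak, 7 had it in *Wtap*-BKO mice alone, beside 14.9% of all genes with a peak. In 5 muscle pairs the *Wtap*-BKO peak was longer in 5 and had the smaller p-value in 5. Unlike the mitochondrial pairs, none of the peaks on the muscle markers had a false discovery rate of 0. For 12 lymphocyte markers the number of peaks was 3 and 8, and the *Wtap*-BKO peak was longer in 3 of 3 pairs, with the smaller p-value in 3. The 3 *Wtap* flox/flox peaks lay on *Ikzf1* and *Ikzf3* alone. The T cell receptor complex genes *Cd3e*, *Cd3d* and *Cd3g* were among 6 lymphocyte markers with no peak. For 10 fibroblast markers the number of peaks was 12 and 14, with no peak (0) on *Fn1*. In 10 fibroblast pairs the *Wtap*-BKO peak was longer in 6 and had the smaller p-value in 9, and 10 of the 12 *Wtap* flox/flox peaks lay wholly inside a *Wtap*-BKO peak, beside 25.9% of the list. Longer *Wtap*-BKO peaks with smaller p-values were thus also counted on markers of cells other than brown adipocytes. With a false discovery rate under 1e-05 required, 7 macrophage, 8 fibroblast, 0 muscle and 0 lymphocyte markers had peaks in both lists. A peak list holds no levels of these genes, and their part in the mitochondrial peaks was not tested. *Wtap* itself had 4 peaks in each list, which do not measure its level and so do not check the genotype.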

How the data were processed

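m6A MeRIP-seq was performed by the authors on iBAT from 2 genotypes, with an IP and an input sample each, and samples were grouped by their labels. The submitters' processing notes name fastp 0.19.11, BWA 0.7.12, HOMER 4.9.1 and GRCm38.p6. The methods name MACS2 for peak calling, whereas the layout of the lists, in blocks on Ensembl genes, is that of exomePeak, and which caller made them was not settled. The lists were deposited at a false discovery rate under 0.05. Per the file headers they give a p-value for each peak, 2 score columns on a log10 scale, one for the p-value and one for the false discovery rate, and a fold enrichment, a ratio of IP over input whose scaling is not described. A value reported as log10 p-value comes from the first score column. Depth is unknown.

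Peaks on MT were selected in Python 3.11.15 (numpy 2.4.6, pandas 2.3.3, scipy 1.17.1, matplotlib 3.10.9), matched by shared bases on the same strand and placed on genes of the RefSeq table by symbol. All 7 genes were in it, and peak bounds that reach a gene end match that end exactly with starts counted from 0. Intervals are exact (Clopper-Pearson). The matching was tested on simulated data. The peaks were chosen by chromosome alone. The members, gene lists and comparisons were chosen with earlier results of these data known. Every mitochondrial gene with a peak is named, and of each nuclear subunit or RNA processing list the gene with the smallest false discovery rate in *Wtap* flox/flox mice. Peaks were ranked by p-value in place of the false discovery rate, which is tied at 0 for the strongest peaks. The alternatives were the shared bases required, the threshold, the strand, the coordinate convention, the ranking and the point taken as a peak's position. No genome sequence was used, so motifs were not analysed here.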

Additional observations from a re-analysis of the deposited data

How the results depend on the processing

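The counts of mitochondrial peaks and genes found in both lists stayed within 1.5 times under each alternative run: 50% of the peak's bases shared, 50% of the bases of both peaks shared, a false discovery rate under 1e-05 or 1e-20, strand ignored, and starts counted from 1. When 50% of both peaks had to be shared, 7 instead of 8 *Wtap* flox/flox peaks were found, as the second *mt-Nd4* peak makes up 22.4% of the *Wtap*-BKO peak over it. The share of the genes under peaks, 26% and 43.5%, was the same to 3 digits under 1e-05 and with starts counted from 1. The rank of the mitochondrial peaks depended on the measure. By p-value a median of 99.9% of the *Wtap* flox/flox list ranked lower, but by fold enrichment 9.93%, and for the *Wtap*-BKO list 29.8% in place of 100%. With the peak start as the position, the median fell at 43.7% of the gene in *Wtap* flox/flox mice, against 25.7% in *Wtap*-BKO mice, and with the peak end at 88.1% and 71.4%, by construction. Containment under an overhang of 30 bases, bounds under the stricter match and nuclear subunits under 1e-05 were added after the data were seen and moved none of these counts by over 1.5 times. Pairs on other chromosomes with a false discovery rate of 0, chosen in the *Wtap*-BKO list or in both lists instead of the *Wtap* flox/flox list, were added as well, and there the *Wtap*-BKO peak was longer in 49.2% and 35.7% instead of 17.0%. Each genotype has 1 pooled sample, so no replicate could be left out. No paired analysis was possible because the groups share 1 number at most and no test was made. A peak missing from a list means that none passed the authors' threshold there.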
